A study of Mus musculus with 15 samples.

Results

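Arntl (also called Bmal1), Clock, Npas2, Bhlhe40 and Bhlhe41 encode the basic helix-loop-helix (bHLH) factors that act at E-boxes in the circadian clock. The 5 genes were taken by name, through their Entrez identifiers, from the 22797 genes measured in the series. They were read in 15 RNA-seq libraries of innate lymphoid cells of the types ILC2 and ILC3, sorted from the small intestine of female mice. The times were 4, 10, 16 and 23 h, given as zeitgeber time (ZT, hours after lights on), and the comparisons were ILC3 with ILC2 and the times with each other. ILC2 held 2 libraries at ZT4, ZT10 and ZT23 and 1 at ZT16, and ILC3 held 2 at each time. No genotype, strain, age or treatment was given for any group. Cells of 6 mice were pooled at each time, so the spread between animals was not measured. The design text calls the libraries biological replicates, but it does not say if each was sorted from its own pool of mice, so the p-values may measure technical spread. All ILC2 libraries carry the batch label 1 and all ILC3 libraries the label 2, and the effects of batch and of cell type cannot be told apart in any comparison between them.

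In the clock of mammalian cells, BMAL1 pairs with CLOCK, or with the CLOCK paralog NPAS2, and the pair activates genes through E-boxes. Among those genes are the period and cryptochrome genes, whose proteins repress the pair, and the REV-ERB genes, whose proteins compete with ROR receptors at the Arntl promoter. BHLHE40 and BHLHE41 (DEC1 and DEC2) are E-box repressors that close a further loop, and they also act in lymphocytes outside the clock, where BHLHE40 is known as an activation-induced regulator of cytokine genes.

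The depth was 4016298 to 18538315 total counts for the ILC2 libraries and 5903163 to 24794403 for the ILC3 libraries. The labels matched their defining markers: the summed level of 10 ILC2 markers was 1760 to 3481 CPM (read counts relative to the scaled library total) in ILC2 and 263 to 665 in ILC3, and that of 10 ILC3 markers was 134 to 344 in ILC2 and 1314 to 3407 in ILC3. RNA of other cells was present and unevenly spread. The summed level of 12 plasma and B cell markers was 19741 to 197182 CPM in ILC2, 94.6% of it from Jchain, the joining chain of secreted immunoglobulin, against 642 to 4644 CPM in ILC3. All of those 12 markers had counts in both cell types.

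The promoter regions show which clock elements stand at the starts of these genes. RefSeq promoter entries (GRCm38.p6, 250 bases before to 50 after a transcript start) were found for 4 of the 5 genes, Bhlhe40 being the other. They were searched on both strands for the E-box CACGTG, for TAGGTNA as the core of the element shared by ROR and REV-ERB, and for the D-box TTANGTAA. No window of the 4 genes held matches to more than 1 of these motifs. At 1 of its 2 starts, Arntl held 2 matches to TAGGTNA, which begin 6 bases before and 30 bases after the start, and the window of the other start held 1 of them. Of 32851 promoter windows of the same length, 8.29% held at least 1 such match and 0.557% held 2 or more. Bhlhe41 held 1 E-box 153 bases before its start, as did at least once 7.15% of the windows. The windows of Clock and Npas2 held no match to any of the 3 motifs, and the D-box, present in 2.32% of windows, was matched in none of the 4 genes. The stretches with matches are shown because the regulators of both elements were measured too, and capitals mark the matches. The first runs over chr7:113207261-113207511 on the plus strand and ends on the last base of the match that spans the Arntl start, the next over chr7:113207529-113207558 on the plus strand, and the last over chr6:145865421-145865670 on the minus strand.
Arntl, before the start: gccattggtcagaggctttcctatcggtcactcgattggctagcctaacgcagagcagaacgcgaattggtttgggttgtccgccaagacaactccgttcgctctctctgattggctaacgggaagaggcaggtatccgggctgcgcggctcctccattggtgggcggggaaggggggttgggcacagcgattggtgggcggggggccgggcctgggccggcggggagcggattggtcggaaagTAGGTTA
Arntl, after the start: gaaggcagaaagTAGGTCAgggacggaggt
Bhlhe41, before the start: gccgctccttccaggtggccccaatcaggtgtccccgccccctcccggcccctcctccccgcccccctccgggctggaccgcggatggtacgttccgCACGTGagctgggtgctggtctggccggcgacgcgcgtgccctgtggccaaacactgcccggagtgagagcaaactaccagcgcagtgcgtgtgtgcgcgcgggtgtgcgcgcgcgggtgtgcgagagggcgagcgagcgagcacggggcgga

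Compared per gene length, Bhlhe40 was by far the most abundant of the 5 mRNAs in every library, and the position of Bhlhe41 in the order was what differed between the cell types. In TPM, which divides counts by gene length and then by the library sum, the mean level of Bhlhe40 was 822 ± 198 in ILC2 (SD, n = 7) and 1264 ± 381 in ILC3 (SD, n = 8). Arntl followed with a mean of 22.9 TPM in ILC2 and 28.5 in ILC3, Clock with 8.68 and 10.2, and Npas2 with 3.44 and 6.11. Bhlhe41 had a mean of 30.1 TPM in ILC2 and 1.03 in ILC3. All 8 ILC3 libraries gave the order Bhlhe40, Arntl, Clock, Npas2, Bhlhe41. In ILC2, 4 libraries placed Bhlhe41 second and 3 placed it after Arntl, while Bhlhe40 stayed first and Clock and Npas2 last. These levels are a description with no test between genes.

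**Figure D1:**
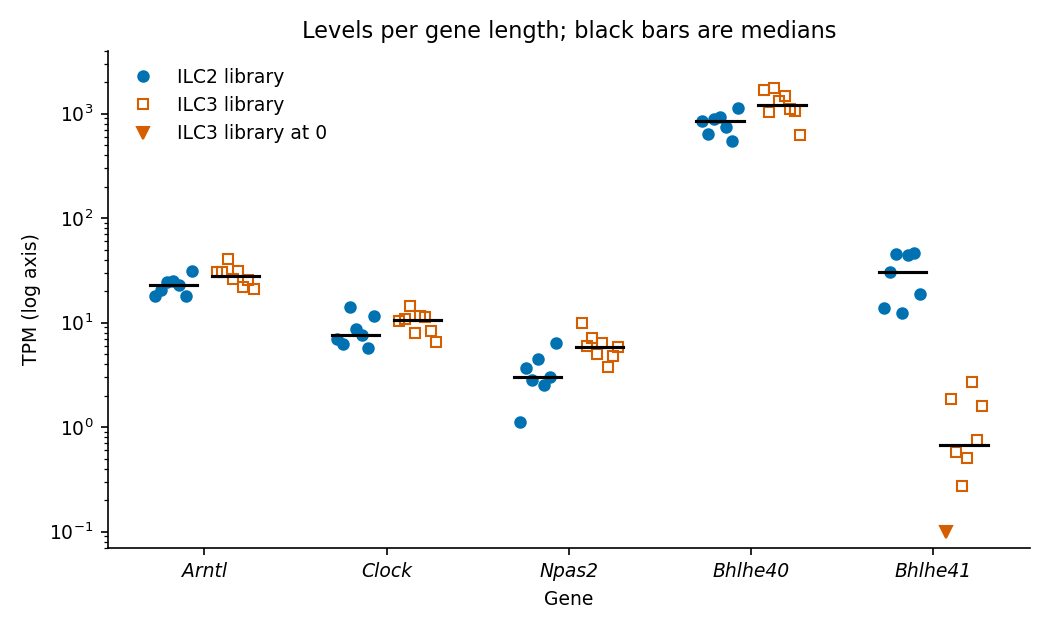
Level per gene length (TPM, log axis) of the 5 genes in each of the 7 ILC2 libraries (filled circles) and 8 ILC3 libraries (open squares), with the median of each cell type as a black bar and the ILC3 library without a Bhlhe41 count as a triangle at the foot. Bhlhe40 stands above all other genes, and Bhlhe41 is the gene whose ILC2 and ILC3 libraries do not overlap.

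Arntl, the obligate partner of the activating pair (chr7:113178471-113314126, counted over 2908 bases of transcript), had counts in all libraries and was not called between the cell types. Its ILC2 libraries read 30.9 and 33.2 CPM after TMM scaling (ZT4), 32.8 and 38.0 (ZT10), 34.6 (ZT16, a single library) and 32.1 and 43.0 (ZT23). The ILC3 values were 48.4 and 40.9 CPM (ZT4), 51.4 and 38.8 (ZT10), 41.1 and 28.9 (ZT16) and 36.4 and 36.6 (ZT23). Over all times the ranges overlapped, with 2 ILC3 libraries above all of ILC2. At ZT4 and at ZT10 both ILC3 libraries lay above both ILC2 libraries, but neither time gave a call (edgeR adjusted p = 0.334 and 0.596). Groups of 1 or 2 libraries can separate without a difference, and the share of all genes that separate at a single time was not counted. The highest library stood 1.39-fold above the lowest in ILC2 and 1.78-fold in ILC3. The cell type means were 34.96 ± 4.21 CPM in ILC2 (SD, n = 7) and 40.3 ± 7.08 in ILC3 (SD, n = 8). The ILC3 level differed from the ILC2 level by 0.20 ± 0.14 (log2 fold change ± SE, 95% interval -0.11 to 0.50; edgeR quasi-likelihood adjusted p = 0.327), which did not pass the threshold of 0.05. In the order of the 8 group means, from ILC3 at ZT10 (45.1 CPM) down to ILC2 at ZT4 (32.1), 6 of the 7 neighbouring pairs overlapped in their libraries.

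Clock, which encodes the usual partner of BMAL1 (chr5:76209868-76305603, 7478 bases counted), was not called between the cell types either. Its ILC2 libraries read 30.6 and 26.3 CPM (ZT4), 48.7 and 33.5 (ZT10), 29.7 (ZT16, a single library) and 26.4 and 40.6 (ZT23). The ILC3 values were 42.4 and 37.0 CPM (ZT4), 46.9 and 31.0 (ZT10), 39.3 and 37.9 (ZT16) and 30.9 and 29.6 (ZT23). Over all times the cell types overlapped. At ZT4 and ZT16 the ILC3 libraries lay above those of ILC2, but Clock was not called at either time. The highest single library was replicate 1 of ILC2 at ZT10. The means were 33.7 ± 8.22 CPM in ILC2 (SD, n = 7) and 36.9 ± 6.10 in ILC3 (SD, n = 8), a log2 difference of 0.16 ± 0.16 (95% interval -0.18 to 0.50; adjusted p = 0.498). All 7 neighbouring pairs in the order of the group means overlapped.

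Npas2, the CLOCK paralog that can replace it beside BMAL1 (chr1:39193702-39363240, 4180 bases counted), was the least abundant activator and had higher mean levels in ILC3. Its ILC2 libraries read 2.72 and 8.69 CPM (ZT4), 5.47 and 9.77 (ZT10), 5.53 (ZT16, a single library) and 7.85 and 12.5 (ZT23). The ILC3 values were 22.7 and 11.6 CPM (ZT4), 12.97 and 10.9 (ZT10), 11.96 and 6.98 (ZT16) and 9.81 and 14.7 (ZT23). The cell types overlapped over all times and at ZT23, with 3 ILC3 libraries above all of ILC2 and 3 ILC2 libraries below all of ILC3. They did not overlap at the other 3 times, but Npas2 was not called at any single time. The means were 7.51 ± 3.24 CPM in ILC2 (SD, n = 7) and 12.7 ± 4.63 in ILC3 (SD, n = 8). The log2 difference of 0.80 ± 0.32 (95% interval 0.11 to 1.49) missed the threshold with an adjusted p of 0.0808. DESeq2 placed it past the threshold (0.81, adjusted p = 0.0400), as did scaling by library size alone (0.93, adjusted p = 0.0495) and the fit without replicate 2 of ILC2 at ZT4 (1.07, adjusted p = 0.0190). Over the 15 fits that left out 1 library the difference ran from 0.64 to 1.07 and its adjusted p from 0.0190 to 0.216. The highest value came from replicate 1 of ILC3 at ZT4, which also had the lowest T cell marker sum of the ILC3 libraries (344 CPM against a median of 1681 CPM), the highest macrophage and dendritic cell sum (4525 against 2451) and the highest ILC3 marker sum (3407 against 2073). The part of these sums in the Npas2 level was not tested.

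The ratios between the partners had close medians in the cell types, but the mean log2 ratio of Npas2 to Clock was lower in ILC2. In TPM, Arntl stood at a median of 2.92 times Clock in ILC2 (range 1.73 to 3.25) and 2.89 times Clock in ILC3 (1.96 to 3.22). Npas2 stood at a median of 0.522 times Clock in ILC2 (0.159 to 0.591) and 0.563 times Clock in ILC3 (0.330 to 0.957). Both ratios overlapped between the cell types, and the mRNA of Clock exceeded that of Npas2 in all 15 libraries. The log2 ratios were taken with a small constant added to both levels. Npas2 to Clock had a mean of -1.28 ± 0.66 in ILC2 (SD, n = 7) and -0.71 ± 0.45 in ILC3 (SD, n = 8). That difference of 0.57 ran from 0.41 to 0.68 when single libraries were left out. Arntl to Clock had means of 1.38 ± 0.29 and 1.44 ± 0.22. No test was made of these ratios.

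**Figure D2:**
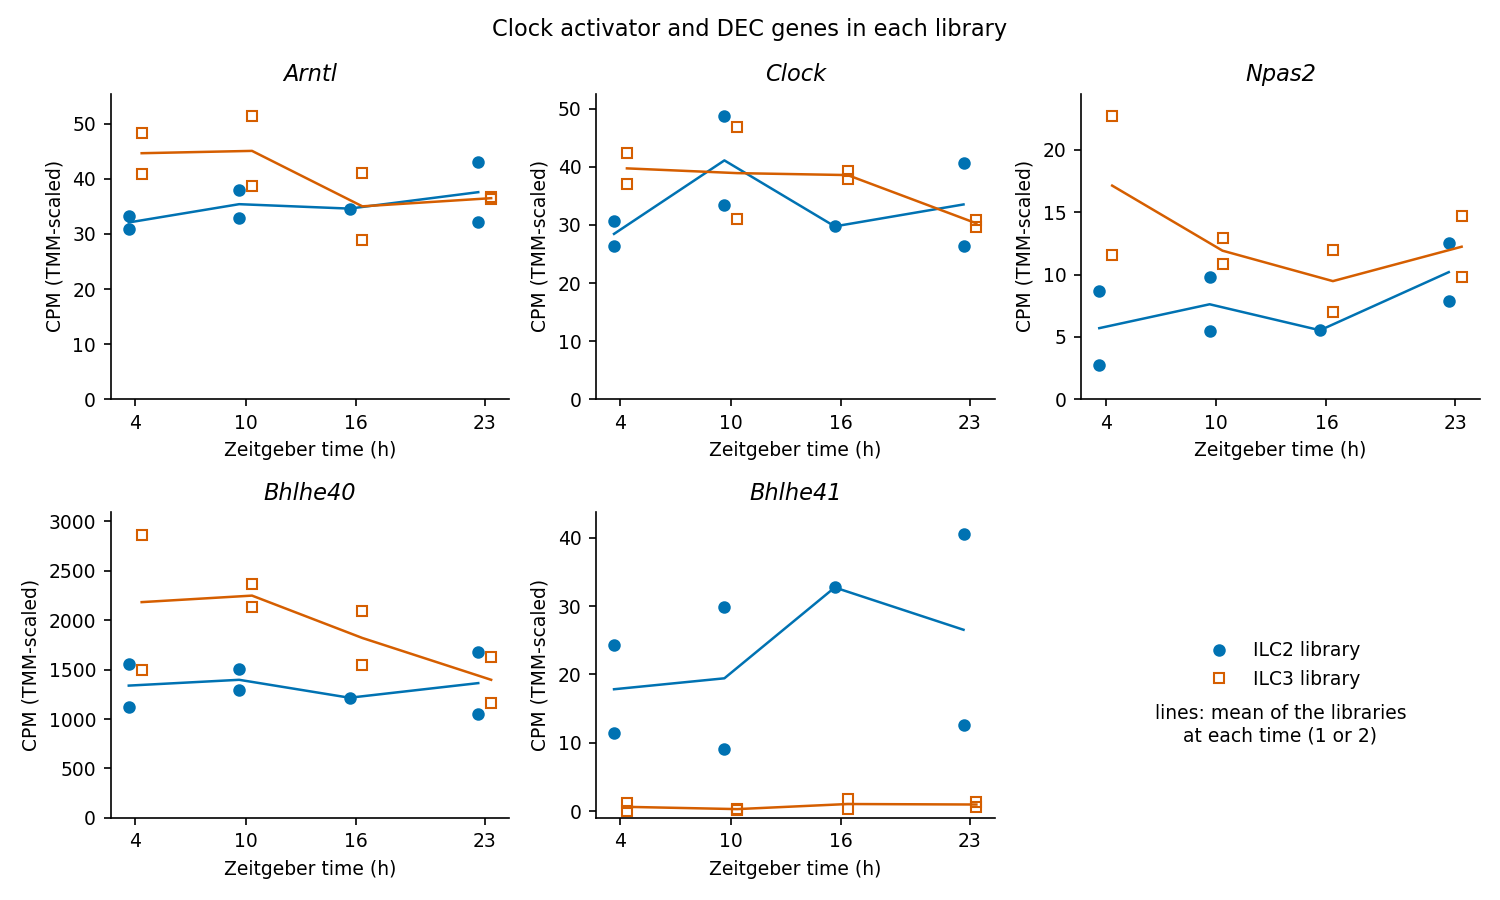
Level of each gene in each library (CPM after TMM scaling, each panel with its own axis) against zeitgeber time in hours, with lines through the mean of the 1 or 2 libraries of each cell type and time. Over all times Arntl and Clock overlap between ILC2 (filled circles) and ILC3 (open squares). Neither does at ZT4, nor Arntl at ZT10 or Clock at ZT16, but these genes were not called at those times. Bhlhe41 is separate at every time and over all times, with replicates as far apart as 12.5 and 40.6 CPM in ILC2 at ZT23.

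Bhlhe40, the gene of the repressor DEC1 (chr6:108660629-108666925, 3113 bases counted), had 405739 counts over all libraries, the most of the 5. Its ILC2 libraries read 1554 and 1122 CPM (ZT4), 1291 and 1503 (ZT10), 1215 (ZT16, a single library) and 1051 and 1676 (ZT23). The ILC3 values were 2866 and 1500.2 CPM (ZT4), 2367 and 2131 (ZT10), 2093 and 1547 (ZT16) and 1632 and 1163 (ZT23). The cell types overlapped over all times and at ZT4: 4 ILC3 libraries lay above all of ILC2, but at ZT23 the ILC3 libraries lay within the ILC2 range. The means were 1345 ± 236 CPM in ILC2 (SD, n = 7) and 1912 ± 553 in ILC3 (SD, n = 8), a log2 difference of 0.50 ± 0.19 (95% interval 0.08 to 0.92; adjusted p = 0.0745). That difference also depended on the method: DESeq2 (0.51, adjusted p = 0.0170) and scaling by library size alone (0.64, adjusted p = 0.0271) placed it past the threshold. It passed as well without replicate 2 of ILC2 at ZT23 (0.60, adjusted p = 0.0450) and without replicate 2 of ILC3 at ZT4 (0.60, adjusted p = 0.0223). Over the 15 fits that left out 1 library it ran from 0.37, without replicate 1 of ILC3 at ZT4, to 0.60, with adjusted p from 0.0223 to 0.170. That replicate had the highest Bhlhe40 level as well as the marker sums given for it under Npas2, whose part in the Bhlhe40 level was not tested. An overlapping long noncoding gene, 0610040F04Rik, had 13 counts in all libraries together.

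Bhlhe41, the gene of the repressor DEC2 (chr6:145858243-145865420, 1421 bases counted), was the member that differed between the cell types: it was lower in ILC3 at all 4 times. Its ILC2 libraries read 11.4 and 24.3 CPM (ZT4), 29.8 and 9.06 (ZT10), 32.7 (ZT16, a single library) and 40.6 and 12.5 (ZT23). The ILC3 values were 0 and 1.22 CPM (ZT4), 0.358 and 0.198 (ZT10), 0.325 and 1.72 (ZT16) and 0.530 and 1.37 (ZT23). Every ILC3 library was below every ILC2 library, and in the order of the 8 group means the step between the cell types was the 1 of 7 neighbouring pairs without overlap. The ILC3 values rest on 118 counts in 8 libraries against 1640 counts in 7 ILC2 libraries, and the library with no count allows up to 0.558 CPM (3 counts). The means were 22.9 ± 12.2 CPM in ILC2 (SD, n = 7) and 0.715 ± 0.631 in ILC3 (SD, n = 8), 32.0 times lower in ILC3. In these bulk samples, fewer cells that express a gene and less of its RNA per cell cannot be told apart.

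In edgeR's test over all times, Bhlhe41 fell by 5.10 ± 0.58 on the log2 scale (95% interval -6.36 to -3.84; adjusted p = 4.33e-05). It was the 1 of 5 members called, where 27.1% of the 15339 genes tested were called, 15.1% as higher in ILC3 and 12% as lower. All 5 members had passed the filter on low counts. The median log2 difference over all genes was 0.11, beside 0.20 for Arntl and 0.16 for Clock. At single times Bhlhe41 was again the 1 member called, with a log2 difference of -4.52 at ZT4 (adjusted p = 0.0295; 7.21% of all genes called, 2.7% as lower), -6.07 at ZT10 (adjusted p = 0.00983; 6.31%, 2.54% as lower), -5.00 at ZT16 (adjusted p = 0.0406; 3.29%, 1.72% as lower) and -4.81 at ZT23 (adjusted p = 0.0221; 6.84%, 3.79% as lower).

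The call on Bhlhe41 over all times held in each of the 15 fits that left out 1 library, with log2 differences from -6.75 to -4.84 and adjusted p from 5.85e-05 to 0.000655. The calls at single times were less firm. At ZT4 the call was lost without replicate 2 of ILC2 (adjusted p = 0.101) or replicate 1 of ILC3 (0.128). At ZT10 it was lost without replicate 1 of ILC2 (0.0566), replicate 1 of ILC3 (0.0962) or replicate 2 of ILC3 (0.127). At ZT23 it was lost without replicate 1 of ILC2 (0.114), replicate 1 of ILC3 (0.101) or replicate 2 of ILC3 (0.0790). At ZT16, where ILC2 is 1 library, the call was lost with the robust fit (adjusted p = 0.0564), with scaling by library size alone (0.0545), without either ILC2 or either ILC3 library of ZT10 (0.0526 to 0.0704), and without replicate 1 (0.255) or replicate 2 (0.119) of ILC3 at ZT16.

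**Figure D3:**
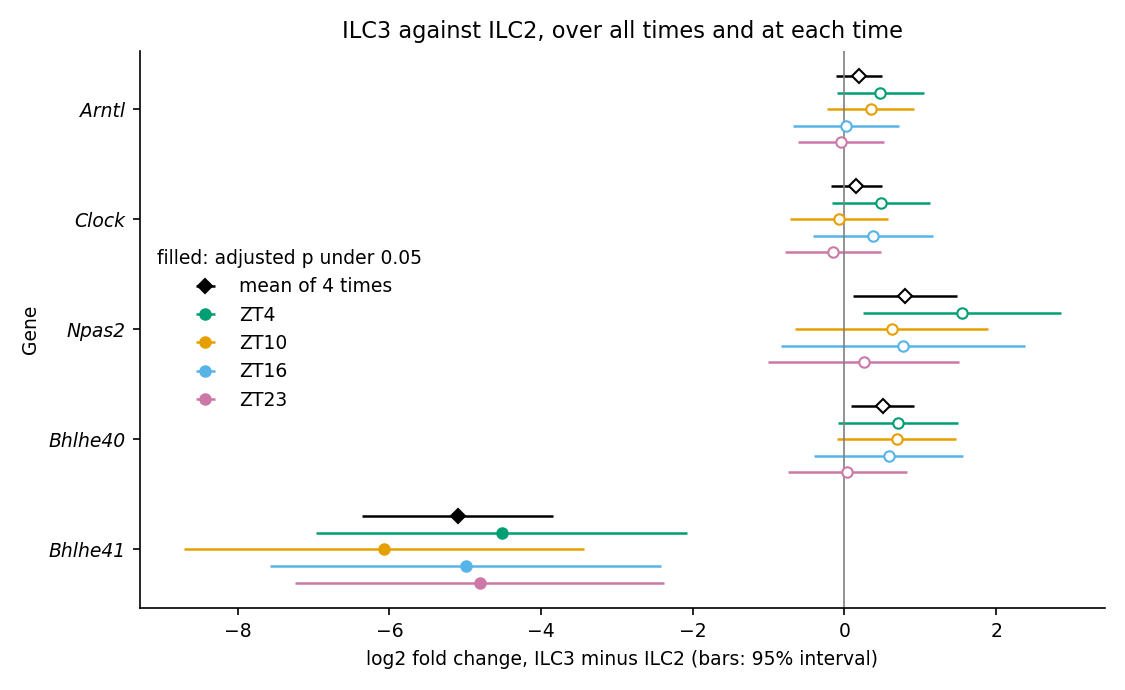
Log2 fold change of ILC3 against ILC2 for each gene, over the mean of the 4 times (diamonds) and at each time (circles), with 95% intervals as bars and filled symbols at an adjusted p under 0.05. Bhlhe41 lies between -6.07 and -4.52 at the single times, while no interval of Arntl or Clock leaves out 0.

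Plasma cell marker RNA, like Bhlhe41, was higher in every ILC2 library than in any ILC3 library. The median plasma and B cell marker sum was 44.5 times as high in ILC2 (71996 CPM) as in ILC3 (1619 CPM). The ratio of 32.0 given for Bhlhe41 is one of means and is not on the same measure. The medians of Bhlhe41 were 24.3 CPM in ILC2 and 0.444 CPM in ILC3. Per 100000 CPM of that sum, Bhlhe41 had a median of 24.04 CPM in ILC2 (range 15.8 to 63.5) and 30.2 CPM in ILC3 (range 0 to 116), so that the cell types overlapped on this scale. Per 1000 CPM of the ILC2 marker sum, Bhlhe41 had a median of 10.6 CPM in ILC2 (range 2.69 to 23.0) and 1.07 CPM in ILC3 (0 to 5.36), and the cell types overlapped there too. In 6 of the 7 groups with 2 libraries, the library with more plasma cell marker RNA had more Bhlhe41. The share of all genes with that order was not counted. The ILC2 library with the highest plasma cell sum, replicate 1 of ZT23, had the highest Bhlhe41 level, 40.6 CPM. Across the 7 ILC2 libraries, log2 Bhlhe41 and the log2 sum gave a Pearson r of 0.719 (exact permutation p = 0.0688, adjusted p = 0.210) and a Spearman rho of 0.750 (exact permutation p = 0.0663, adjusted p = 0.244). Leaving out the 2 libraries farthest from the median sum gave an r of 0.589. Neither coefficient passed. Other marker sums had relations to Bhlhe41 of like size, and none of them passed either. The mast cell, basophil and eosinophil sum gave r = 0.819 in ILC2 and 0.405 in ILC3. The T cell sum gave -0.751 and 0.521, and the epithelial sum 0.382 and 0.713. The part of plasma cell RNA, or of other cells' RNA, in the difference of Bhlhe41 between the cell types was not tested.

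Within the ILC2 libraries the DEC genes had relations of opposite sign to the ILC2 markers. Bhlhe41 against the ILC2 marker sum gave r = -0.880 (exact permutation p = 0.0187, adjusted p = 0.109), rho = -0.857 (exact permutation p = 0.0238, adjusted p = 0.185) and r = -0.905 without the 2 farthest libraries. Bhlhe40 against the same sum gave r = 0.951 (exact permutation p = 0.00278, adjusted p = 0.0648), rho = 0.893 (exact permutation p = 0.0123, adjusted p = 0.179) and r = 0.887 without the 2 farthest. In the ILC3 libraries Bhlhe41 also had negative relations. It gave r = -0.835 against the ILC2 marker sum (exact permutation p = 0.0112, adjusted p = 0.0979). Against the ILC3 marker sum it gave r = -0.867 (exact permutation p = 0.00573, adjusted p = 0.0668). None of these passed the adjustment over the 70 relations of 5 genes, 7 marker lists and 2 cell types. All of those given here were added after the values were seen.

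In ILC3, Bhlhe40 gave the 2 of 70 relations whose Pearson r passed the adjustment. Both were added after the values were seen, and the permutations treated libraries of different times as exchangeable. Their p-values are therefore a description and not a test set in advance. Against the ILC3 marker sum Bhlhe40 had r = 0.943 (exact permutation p = 0.000744, adjusted p = 0.0260), rho = 0.905 (exact permutation p = 0.00456, adjusted p = 0.106) and r = 0.822 without the 2 farthest libraries. Against the ILC2 marker sum, of which Il2ra made up 46.3% in ILC3, it had r = 0.964 (exact permutation p = 0.000347, adjusted p = 0.0243), rho = 0.929 (exact permutation p = 0.00223, adjusted p = 0.0781) and r = 0.961 without them. In all 7 groups with 2 libraries, the library with the higher ILC2 marker sum had the higher Bhlhe40 level. The share of all genes that did so was not counted. Relations to plasma cell RNA had the opposite sign and did not pass: Bhlhe40 against the plasma and B cell sum gave r = -0.874 in ILC2 (exact permutation p = 0.0103, adjusted p = 0.0979; rho = -0.857, exact p = 0.0238, adjusted p = 0.185; r = -0.662 without the 2 farthest). In ILC3 the same relation gave r = -0.802 (exact permutation p = 0.0177, adjusted p = 0.109; rho = -0.833, exact p = 0.0154, adjusted p = 0.179; r = -0.712 without the 2 farthest). The epithelial sum gave r = -0.874 in ILC3 (exact permutation p = 0.00389, adjusted p = 0.0668) and -0.396 in ILC2. The mast cell, basophil and eosinophil sum gave -0.815 in ILC2 and -0.510 in ILC3, and none of these passed. The ILC3 library with the least Bhlhe40, replicate 2 of ZT23 at 1163 CPM, had the highest epithelial marker sum (3908 CPM against a median of 487) and the highest plasma cell sum (4644 CPM). The part of other cells' RNA in the Bhlhe40 levels was not tested.

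**Figure D4:**
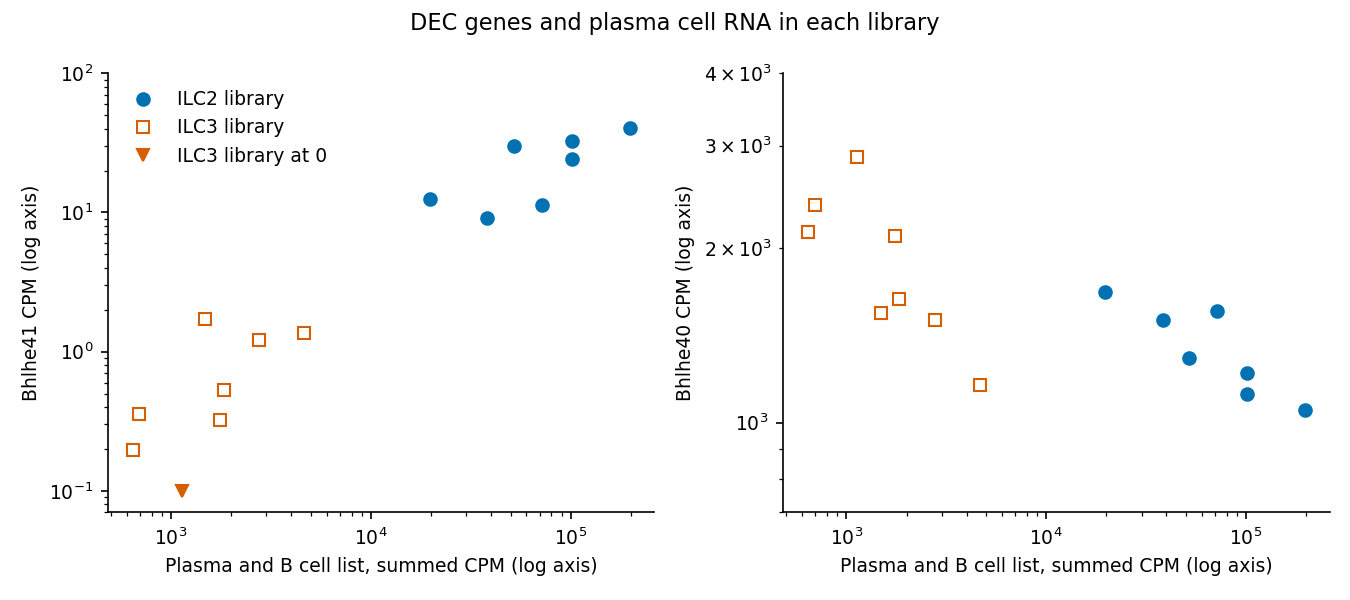
Level of Bhlhe41 (left) and Bhlhe40 (right) in CPM against the summed CPM of 12 plasma and B cell markers in each library, both axes logarithmic, with the ILC3 library without a Bhlhe41 count as a triangle at the foot. The Pearson r of the log2 values is 0.719 for Bhlhe41 and -0.874 for Bhlhe40 within ILC2 (filled circles), and 0.620 and -0.802 within ILC3 (open squares).

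The DEC genes differed in opposite directions between most replicates. In 6 of the 7 groups with 2 libraries, the library with more Bhlhe40 had less Bhlhe41, the exception being ILC3 at ZT10. Across libraries the relation of Bhlhe40 to Bhlhe41 was r = -0.877 in ILC2 (exact permutation p = 0.0226, adjusted p = 0.192; rho = -0.750, exact p = 0.0663, adjusted p = 0.196). In ILC3 it was r = -0.904 (exact permutation p = 0.00332, adjusted p = 0.0665; rho = -0.857, exact p = 0.0107, adjusted p = 0.196). Without the 2 libraries farthest from the median of Bhlhe40, r was -0.844 in ILC2 and -0.848 in ILC3. None of the 20 relations between members passed the adjustment. In all 7 such groups the library with more Arntl also had more Npas2, and the pair had r = 0.756 in ILC2 (exact permutation p = 0.0518, adjusted p = 0.192; rho = 0.821, exact p = 0.0341, adjusted p = 0.196; r = 0.528 without the 2 farthest). In ILC3 that pair had r = 0.759 (exact permutation p = 0.0368, adjusted p = 0.192; rho = 0.714, exact p = 0.0576, adjusted p = 0.196; r = 0.773 without the 2 farthest). The relations between members and the orders of replicates were added after the values were seen. The share of all gene pairs with replicate orders like these was not counted. As a share of Bhlhe40 in TPM, Bhlhe41 had a median of 4.74% in ILC2 (1.32% to 8.45%) and 0.0526% in ILC3 (0% to 0.259%), without overlap.

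The time of day gave no call for any of the 5 genes. In edgeR's test over the 4 times, 0 of 5 members passed in ILC2 and 0 of 5 in ILC3, and so did 0% of all genes in each cell type. At an unadjusted p under 0.05 the tests held 516 genes in ILC2 (3.36%) and 669 in ILC3 (4.36%), none of them a member. DESeq2 called 24 genes in ILC2 and 28 in ILC3, and no member, but it gave no value for Npas2 and Bhlhe41 in ILC3. The unadjusted p of the members lay between 0.358 and 0.974 in ILC2 and between 0.272 and 0.551 in ILC3. The test of whether the time course differed between the cell types also called 0 members and 0% of all genes, with 307 genes (2%) at an unadjusted p under 0.05, 0 members among them, and 2 genes by DESeq2.

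ZT23 and ZT10 lie near the peak and the trough of Arntl known from other tissues, and the difference between them called 0 of 5 members and 0% of all genes in each cell type. For Arntl, ZT23 minus ZT10 was 0.085 ± 0.26 (log2 ± SE, 95% interval -0.49 to 0.66) in ILC2 and -0.30 ± 0.26 (-0.87 to 0.26) in ILC3. Clock gave -0.28 ± 0.30 (-0.93 to 0.36) in ILC2 and -0.36 ± 0.29 (-0.998 to 0.27) in ILC3. These intervals bound an Arntl difference at these 2 times to less than 1 log2 unit in either direction. Npas2 gave 0.40 ± 0.59 in ILC2 and 0.037 ± 0.58 in ILC3, with intervals from -0.88 to 1.68 and from -1.22 to 1.29. Bhlhe40 gave -0.035 ± 0.36 in ILC2 (-0.82 to 0.75) and -0.69 ± 0.36 in ILC3 (-1.47 to 0.10; unadjusted p = 0.0818, adjusted p = 0.598). Bhlhe41, at its low counts, gave 0.46 ± 0.94 in ILC2 (-1.58 to 2.50) and 1.72 ± 1.14 in ILC3 (-0.75 to 4.19). At an unadjusted p under 0.05 these tests held 445 genes in ILC2 (2.9%) and 1253 in ILC3 (8.17%), no member in either, and DESeq2 called 5 and 24 genes.

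A cosine of 24 h placed the members beside their target genes as a description. The amplitude of Arntl was 0.085 ± 0.12 (log2 ± SE) in ILC2 and 0.25 ± 0.12 in ILC3, where the fitted peak fell at 6.86 ± 1.57 h. That of Clock was 0.16 ± 0.18 in ILC2 and 0.17 ± 0.12 in ILC3, and that of Npas2 was 0.30 ± 0.49 and 0.41 ± 0.22. Bhlhe40 had 0.064 ± 0.19 in ILC2 and 0.38 ± 0.20 in ILC3, with a fitted peak at 9.07 ± 1.83 h. Bhlhe41 had the highest amplitudes of the 5, 0.54 ± 0.58 in ILC2 and 0.94 ± 0.71 in ILC3. Among the targets, Dbp, a PAR bZIP factor gene driven through E-boxes, had 1.31 ± 0.11 in ILC2 and 1.36 ± 0.23 in ILC3. Per3, a period gene, had 1.18 ± 0.20 and 1.51 ± 0.34, and Nr1d1, which encodes REV-ERB alpha, had 0.73 ± 0.23 and 0.96 ± 0.19. Other targets lay lower: Per1 had 0.41 ± 0.086 in ILC2 and 0.58 ± 0.17 in ILC3, Cry1, a cryptochrome gene, 0.42 ± 0.17 and 0.37 ± 0.077, and Ciart, a clock repressor gene, 0.45 ± 1.01 and 0.24 ± 0.20. Hlf had 0.38 ± 0.21 in ILC2 and 0.98 ± 0.29 in ILC3, so that amplitudes of members and targets overlapped. Divided by its SE, the amplitude of the members ran from 0.34 (Bhlhe40 in ILC2) to 2.14 (Arntl in ILC3). For the targets other than Ciart and Hlf it ran higher, from 2.41 (Cry2 in ILC2) to 44.9 (Tef in ILC2). Ciart had 0.45 in ILC2 and 1.15 in ILC3, and Hlf had 1.81 and 3.45. With 4 times sampled once around the day, the cosine has few points to rest on, and no test was made of these amplitudes.

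**Figure D5:**
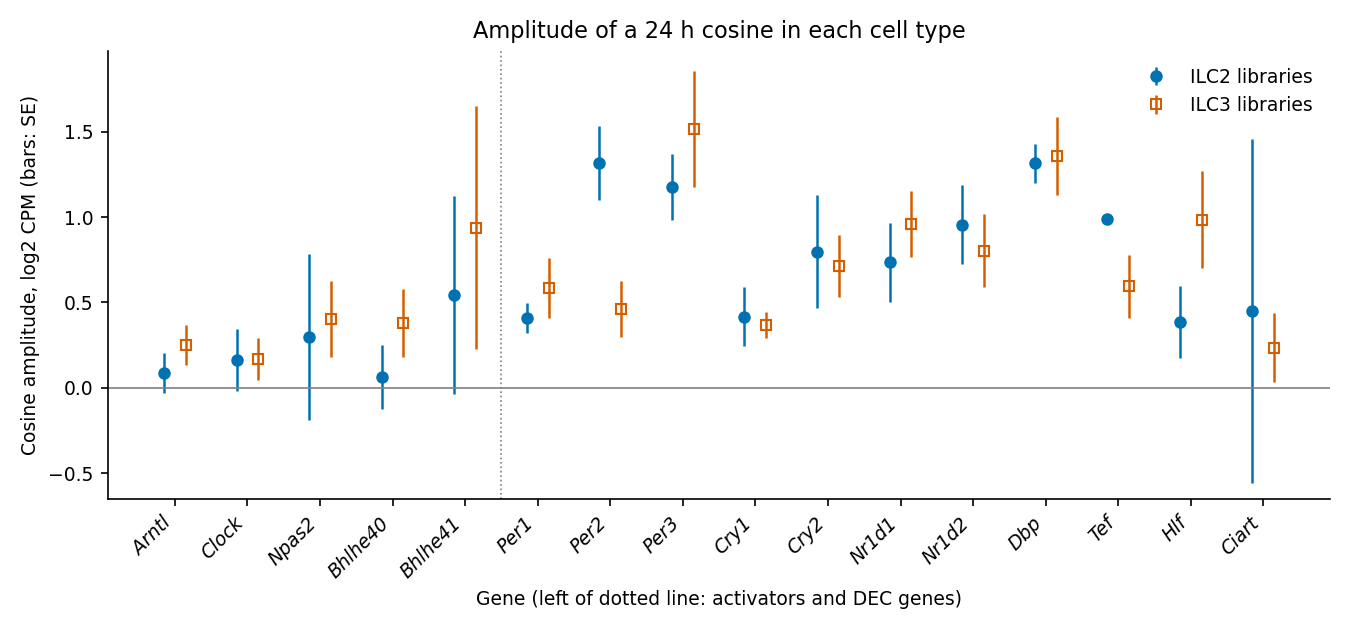
Amplitude of a 24 h cosine fitted to log2 CPM in ILC2 (filled circles) and ILC3 (open squares), with bars of 1 SE, for the 5 genes (left of the dotted line) and 11 E-box clock targets. The amplitudes of Arntl, Clock and Bhlhe40 are all below 0.4 and Bhlhe41 reaches 0.94 in ILC3, while the targets range from Ciart at 0.24 to Per3 at 1.51, both in ILC3.

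The E-box targets of the activators were called between the cell types about as often as all genes. Of 11 such genes, 3 were called between ILC3 and ILC2 over all times, beside 27.1% of all genes: Nr1d1 rose by 2.62 ± 0.19 on the log2 scale (adjusted p = 1.96e-06), Hlf, a PAR bZIP factor gene, fell by 2.47 ± 0.25 (adjusted p = 1.87e-05) and Per3 fell by 1.06 ± 0.30 (adjusted p = 0.0213). The list's median was 0.080, beside 0.11 for all genes. Over time, 0 of the 11 were called in either cell type, but 6 in ILC2 and 7 in ILC3 had an unadjusted p under 0.05. Between ZT23 and ZT10 their median log2 difference was -1.33 in ILC2 and -1.31 in ILC3, beside 0.0055 and 0 for all genes, and 7 and 8 of 11 had an unadjusted p under 0.05.

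Rora and Nr1d1, 2 of the regulators that act at the element matched in the Arntl promoter, were called between the cell types, while Arntl was not. In the same test 27.1% of all genes were called. Nr1d2, the other REV-ERB gene, was not called. The part of these regulators in the Arntl level was not tested. Rora, which encodes a ROR activator that is also an ILC2 lineage factor and is among the ILC2 markers used here, fell by 0.87 ± 0.23 in ILC3 (adjusted p = 0.0159). Nr1d1, the gene of the repressor REV-ERB alpha, is given above as higher in ILC3. Neither Rora nor Nr1d1 was called over time, where 0% of all genes were called in either cell type. The lack of a call there does not show a flat level, and the cosine amplitudes of Nr1d1 are given above.

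Relatives of the 5 genes were described by counts. Of 16 bHLH-PAS relatives and coactivators, 11 were tested and 4 were called between the cell types, beside 27.1% of all genes, with a median of 0.0074. Epas1, a hypoxia-inducible factor subunit gene, fell by 2.85 ± 0.23 in ILC3 (adjusted p = 3.62e-06), and Arnt2, a general PAS partner gene, rose by 4.15 ± 0.57 (adjusted p = 0.000172). The nuclear receptor coactivator genes Ncoa1 and Ncoa2 fell by 1.02 ± 0.13 (adjusted p = 9.11e-05) and 0.50 ± 0.15 (adjusted p = 0.0299). Of 10 Hes and Hey genes, the repressor family closest to the DEC genes, 8 were tested and 2 called, a share close to that of all genes: Hes1, a Notch target, fell by 3.33 ± 0.18 (adjusted p = 3.20e-07) and Heyl rose by 4.08 ± 0.52 (adjusted p = 0.000101). The median of that list was -0.37.

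Among 25 other genes of helix-loop-helix proteins linked to E-boxes, 11 were called, 4 higher and 7 lower in ILC3, with a median of -0.014. The list includes E proteins, Id proteins, which lack a basic region, and the MYC, MAX and USF families. Of all genes, 27.1% were called, 15.1% as higher and 12% as lower. Those with the smallest p were all lower in ILC3: the MAX partner genes Mxi1 (-1.32 ± 0.16, adjusted p = 6.71e-05) and Mxd1 (-0.70 ± 0.13, adjusted p = 0.00130), and the E protein genes Tcf4 (-1.51 ± 0.21, adjusted p = 0.000228) and Tcf3 (-0.66 ± 0.13, adjusted p = 0.00221). Of 21 cofactors and modifiers of CLOCK and BMAL1, 2 were called, with a median of -0.12. Fbxl21, whose product ubiquitinates cryptochromes, fell by 2.72 ± 0.25 (adjusted p = 1.07e-05), and Sfpq, a partner of the period proteins, rose by 0.48 ± 0.13 (adjusted p = 0.0154). In the tests over time, 0 genes of these 4 lists were called in either cell type, where 0% of all genes were called.

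The genes most like each member across the 15 libraries, among 9444 compared by Pearson r of log2 CPM, are a description that shares library depth and composition. Clock had Fmr1 (r = 0.916), Plcb4 (0.893) and Chd1 (0.884), and Arntl had Rybp (0.847), Tfdp2 (0.822) and Lemd3 (0.818). Bhlhe40 had Cd82 (0.961), Tbl1x (0.955) and Sla (0.942), and Npas2 had Piga (0.879), Aqp9 (0.865) and Glce (0.863). After each cell type's mean was removed, Il2ra, the IL-2 receptor alpha chain gene, was first for Bhlhe40 (0.942), ahead of Mbp (0.941) and Macroh2a1 (0.940). On that scale Arntl had Rbpms2 (0.888), Nrip1 (0.851) and Rybp (0.810), Clock had Ppfia1 (0.945), Usp32 (0.932) and Rev3l (0.925), and Npas2 had Adra2a (0.841), Glce (0.822) and Prkci (0.811).

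The genes most like Bhlhe41 over all libraries, B3gnt9, Ly6c1 and Fkbp11, shared its separation of the cell types. Fkbp11, which encodes a peptidyl-prolyl isomerase of the secretory pathway, had 41.3 ± 17.9 CPM in ILC2 (SD, n = 7) and 1.65 ± 1.81 in ILC3 (SD, n = 8). Ly6c1, a surface antigen gene, had 138 ± 85.8 CPM in ILC2 (SD, n = 7) and 3.93 ± 2.50 in ILC3 (SD, n = 8). With the cell type means removed, Bhlhe41 had Kctd3 (r = 0.879), Cog4 (0.879) and again Fkbp11 (0.869).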

How the data were processed

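Sequencing libraries were prepared from polyA RNA by a TruSeq protocol, per the labels. The authors deposited raw read counts per gene with gene lengths, made with featureCounts on mm10, per the submitters' processing notes. Strandedness, aligner and multi-mapping rules are not given in the sources used here. Positions are from RefSeq GRCm38.p6, the same build.

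Counts were scaled by TMM and tested with edgeR 4.0.16 (quasi-likelihood, 8 group means over 15 libraries, filterByExpr with a minimum count of 10, 15339 genes, Benjamini-Hochberg threshold 0.05). The ILC2 group of ZT16, 1 library, is assumed to vary like the others. TPM used the deposited gene lengths, and log2 CPM added a count of 2. Alternatives were DESeq2 1.42.0, RLE and library size scaling, a robust fit, no filter, each cell type alone, a cosine, a replicate block and leaving out each library. Exact permutation tests were two-sided. Scripts were tested on simulated data. From each list, up to 4 called genes with the smallest p were named, and for each member the 3 genes with the highest r. A result of the ROR and REV-ERB list is not reported here.

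The members and lists were chosen with earlier results of these data known. The relations to ILC2 and ILC3 markers, the tests between members, the levels per marker sum and the order of replicates were added after the values were seen.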

Additional observations from a re-analysis of the deposited data

How the results depend on the processing

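The fewest counts of a member in a cell type were those of Bhlhe41 in ILC3 (118 in 8 libraries) and then of Npas2 in ILC2 (687 in 7 libraries). Over the cell type and time tests, 1022 of the members' alternative values kept their direction and side of the threshold, 7 gained a call, 16 lost one and 28 changed sign, all of the last from values that were not called; causes were not tested. Members called between the cell types were 3 with DESeq2 and with library size alone and 1 to 2 without single libraries. At single times they were 0 to 1 without single libraries at ZT4, ZT10, ZT16 and ZT23, and 0 at ZT16 with library size alone or the robust fit. DESeq2 called 2025 genes in all at ZT4, 1610.0 at ZT10, 1209 at ZT16 and 1988 at ZT23, beside 1106, 968, 504 and 1049 with edgeR, which without single libraries gave 455 to 1277, 345 to 1101, 110.0 to 627 and 528 to 1231. Over time DESeq2 called 24 genes in ILC2 and 28 in ILC3, 2 for the interaction, and 5 and 24 for ZT23 minus ZT10. That difference gave 2 and 1 with no filter, and time in ILC3 gave 0 to 3 without single libraries. No value could be had from DESeq2 for Npas2 and Bhlhe41 over time in ILC3.

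Values near 0 changed sign. With library size alone Clock was 0.0016 at ZT10 and 0.032 at ZT23, and Arntl 0.15 at ZT23 (ILC3 minus ILC2, log2). Without single libraries, Clock ran from -0.46 to 0.22 at ZT10 and -0.44 to 0.20 at ZT23, Arntl from -0.28 to 0.23 at ZT16 and -0.26 to 0.18 at ZT23, Npas2 from -0.062 to 0.64 and Bhlhe40 from -0.28 to 0.41 at ZT23. For ZT23 minus ZT10 the ranges were -0.14 to 0.28 (Arntl), -0.63 to 0.0050 (Clock), -0.41 to 0.26 (Bhlhe40) and -0.62 to 1.55 (Bhlhe41) in ILC2, and -0.63 to 0.042 (Clock) and -0.28 to 0.30 (Npas2) in ILC3. The replicate numbers were not used as pairs in the main fit. Of 21 correlations between same-numbered deviations, 6 were over 0.1 (-0.159 to 0.447). The highest were between ILC2 and ILC3 at ZT4 (0.447) and between ILC3 at ZT4 and ILC3 at ZT23 (0.417). These correlations cannot settle whether some libraries shared a pool of mice, since the pools are not labelled. With the replicate block, without the ILC2 ZT16 library, Bhlhe40 at ZT23 was -0.012 and Bhlhe41 remained the 1 member called over all times.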
